A study of Homo sapiens with 24 samples.

Results

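The splicing of 8 genes that control apoptosis was examined in HCT-116 cells treated with the splicing modulator E7107: the death receptor FAS, its adaptor FADD, the initiator caspases CASP8, CASP9 and CASP2, the caspase-8 regulator CFLAR, the apoptosome scaffold APAF1 and the caspase inhibitor XIAP. Every listed splice junction or exon-intron boundary on the strand of one of these genes and inside its GRCh37 span was taken, which gave 1006 of the 1823643 rows kept from the table of each sample. Of these, 319 were boundary rows, which measure reads that run unspliced from exon into intron, and 687 were spliced rows. CFLAR (192 rows), CASP2 (186), APAF1 (185) and CASP8 (157) had the most rows, followed by XIAP (113), FAS (81), CASP9 (75) and FADD (17).

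HCT-116 is a colorectal carcinoma line. Poly(A) RNA was sequenced from 24 samples in 4 groups of 6: cells with wild-type (WT) PHF5A under DMSO, the same cells under E7107, cells with the Y36C substitution in PHF5A under DMSO, and those cells under E7107. By the study's methods both kinds of cells carried an added copy of PHF5A, WT or Y36C, over the gene of the line, so the Y36C cells kept their own PHF5A, and treatment lasted 6 h. The study reports that the Y36C form made up most of the PHF5A mRNA in the Y36C cells. The labels give no dose, and nothing in them says whether the 6 samples of a group came from separate cultures, so p-values measure the spread between these samples, which may be technical. The deposited rows hold junctions only, so that the substitution itself could not be read from them.

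FAS on the cell surface gathers FADD, which in turn gathers procaspase-8, and CFLAR competes for the same complex. On the mitochondrial route cytochrome c released into the cytosol assembles APAF1 into the apoptosome, on which caspase-9 is activated, and XIAP binds and blocks active caspases. Caspase-2 is an initiator activated on a complex of its own. Several of these genes are textbook cases of alternative splicing: FAS without its membrane-spanning exon encodes a soluble receptor, caspase-9 without its middle exons lacks the catalytic part, CFLAR has a short form that ends in an exon of its own, and a short exon in CASP2 shifts the frame. E7107 binds the SF3b complex, the part of the spliceosome that recognises the branch point near the acceptor (3′) end of an intron, and PHF5A is a subunit of SF3b.

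The unit is the percent spliced in (PSI): the reads of 1 junction, or of 1 boundary, as a percentage of all reads at that splice site. A junction has a PSI at its donor (the 5′ end of the intron) and another at its acceptor (the 3′ end). PSI is a share at 1 site and says nothing of how much of a transcript is present, and the number of reads behind it is unknown, so no interval was computed for single values. Introns and exons are numbered along 1 reference transcript per gene (MANE Select, or for FAS the APPRIS principal transcript). Each PSI was turned into the natural logarithm of its odds and compared with limma, p-values were adjusted by Benjamini-Hochberg over every row of the table that was tested, and a row is said to have risen or fallen where the adjusted p was at or below 0.05.

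Shown here are 4 exons whose use differed between treatments, or that were chosen for their known effect on the protein, with the 50 intron bases before and the 10 after them, from the GRCh37 genome, with the exon in capitals. FAS exon 6, which codes for the membrane-spanning segment, lies at chr10:90770510-90770572 (+ strand) and is 63 bases long. FAS exon 8, at chr10:90773100-90773124 (+), is 25 bases long, which is not a multiple of 3. CASP8 exon 5, at chr2:202137621-202137665 (+), is 45 bases long. The CASP2 exon that produces the short form is 61 bases long and lies at chr7:142997473-142997533 (+) between reference exons 8 and 9.
FAS exon 6: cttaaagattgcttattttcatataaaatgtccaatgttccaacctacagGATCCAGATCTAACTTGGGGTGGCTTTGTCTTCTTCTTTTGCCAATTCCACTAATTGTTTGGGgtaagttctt
FAS exon 8: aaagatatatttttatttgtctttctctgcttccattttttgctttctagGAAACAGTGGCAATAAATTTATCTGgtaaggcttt
CASP8 exon 5: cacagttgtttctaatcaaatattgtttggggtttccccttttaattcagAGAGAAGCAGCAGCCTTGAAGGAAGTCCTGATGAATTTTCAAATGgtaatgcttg
CASP2 61-base exon: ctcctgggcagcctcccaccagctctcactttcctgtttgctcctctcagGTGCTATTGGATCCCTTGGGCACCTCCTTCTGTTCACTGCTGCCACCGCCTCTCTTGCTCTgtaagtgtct

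The 3′ ends of 5 introns follow, since that is where SF3b acts: the last 50 intron bases are in lower case and the first 6 bases of the next exon in capitals. They are the introns whose retention rose most in FADD, CASP2 and CASP8 (FADD intron 1, ending before chr11:70052239; CASP2 intron 10, before chr7:143002033; CASP8 intron 8, before chr2:202151182) and, for contrast, CFLAR intron 2 (before chr2:201997752) and CASP9 intron 2 (− strand, before chr1:15834402), where the mean of both boundaries did not go up in WT cells. Pyrimidines made up 68% of the last 50 bases in FADD intron 1, 60% in CASP2 intron 10, 58% in CASP8 intron 8, 50% in CFLAR intron 2 and 76% in CASP9 intron 2.
FADD intron 1 end: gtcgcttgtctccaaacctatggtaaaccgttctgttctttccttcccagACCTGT
CASP2 intron 10 end: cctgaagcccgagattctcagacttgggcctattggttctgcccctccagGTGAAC
CASP8 intron 8 end: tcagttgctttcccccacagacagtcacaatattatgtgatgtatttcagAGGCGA
CFLAR intron 2 end: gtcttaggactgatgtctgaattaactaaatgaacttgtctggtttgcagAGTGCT
CASP9 intron 2 end: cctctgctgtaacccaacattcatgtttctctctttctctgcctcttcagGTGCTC

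In WT cells E7107 left the introns of 6 of the 8 genes unspliced to a greater extent, FADD, CASP8 and CASP2 most, while CASP9 and XIAP did not pass the test. In Y36C cells the same treatment raised mean retention by 1.99 to 3.46 points in CASP9, FAS, CFLAR and CASP2. Among all 11539 genes with a mean retention, 70.5% rose in WT cells and 43.3% in Y36C cells, so these gene counts lay near the shares of all genes. Over all member rows, 43 of 96 boundary rows tested rose in WT cells and 1 fell, against 50.3% higher and 4.26% lower among all 172851 boundary rows tested. In Y36C cells 7 of 101 rose and 1 fell, against 13.3% and 0.575% of all boundary rows. The pooled member counts in WT cells thus lay near those of the whole table, and those in Y36C cells were lower for retention. By gene the rises in WT cells were uneven, with 20 of 21 boundary rows in CASP2, 13 of 15 in CASP8 and 2 of 2 in FADD. The other genes had 3 of 10 in CFLAR, 3 of 16 in FAS, 1 of 9 in CASP9, 1 of 17 in APAF1 and 0 of 6 in XIAP.

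Spliced rows moved mostly down in WT cells. There 55 of 180 fell and 22 rose, against 34.2% lower and 6.54% higher among all spliced rows. In Y36C cells 23 of 221 fell and 14 rose, against 11.3% and 6% of all. Of the 22 rows that rose in WT cells, 16 were junctions that skip 1 or more reference exons, 8 in FAS and 8 in CASP2. Of the 14 that rose in Y36C cells, 11 skip exons, 6 in FAS, 3 in CASP8 and 2 in CASP2. The share of skipping junctions among all rows that rose was not computed. Each junction can count at both of its ends.

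With no drug, no difference between the genotypes passed at these genes. No member row passed the limma test between Y36C and WT cells under DMSO (0 of 315, with 22 at an unadjusted p under 0.05), against 0.0158% and 0.0123% of all boundary rows and 0.018% and 0.012% of all spliced rows that were higher and lower. Under E7107 42 of 97 boundary rows were lower in Y36C than in WT cells and 2 were higher (all boundary rows: 45.7% and 8.29%), and 58 of 191 spliced rows were higher and 23 lower (33.3% and 9.92%). The effect of E7107 itself differed between the genotypes, by the interaction term over all 24 samples, at 101 of 279 rows. Retention there responded less in Y36C cells at 39 of 98 boundary rows and more at 1 (background 41.3% and 6.48%), and the change of spliced use was more positive at 47 of 181 spliced rows and more negative at 14 (29.4% and 7.9%).

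Mean retention per gene, the mean PSI over all its boundary rows at sites with reads in all 24 samples, gives 1 value per sample. Among all 11539 genes with such a value, 70.5% rose and 7.28% fell in WT cells under E7107, and 43.3% rose and 0.962% fell in Y36C cells. The adaptor gene FADD, with 1 intron, had the largest change of the 8. Its retention was 1.90 to 7.27% in WT cells under DMSO (median 3.09%), 55.0 to 64.7% under E7107 (57.7%), 1.65 to 4.42% in Y36C cells under DMSO (2.57%) and 1.15 to 3.70% under E7107 (1.80%). The treated WT samples lay far above all others, which overlapped. The rise in WT cells was 54.4 points (log odds 3.39 ± 0.179 SE, adjusted p = 2.48e-09), the change in Y36C cells was -0.652 points (adjusted p = 0.282), and the effects differed (adjusted p = 3.68e-12).

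CASP8, the initiator that FADD recruits, came next. Over its 15 boundary rows, retention was 2.25 to 3.73% in WT cells under DMSO (median 3.23%) and 34.1 to 52.0% under E7107 (40.6%), and 2.15 to 3.99% (2.83%) and 1.77 to 7.42% (4.51%) in Y36C cells. Only the treated WT samples stood apart. The rise was 37.7 points in WT cells (adjusted p = 2.67e-10), the difference of 1.58 points in Y36C cells did not pass (adjusted p = 0.195), and the effects differed (adjusted p = 4.49e-10).

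CASP2, the initiator caspase with a complex of its own, followed. Its 21 boundary rows averaged 3.02 to 5.39% in WT cells under DMSO (median 4.04%) and 32.0 to 36.7% under E7107 (34.9%), and 2.30 to 3.76% (3.12%) and 4.46 to 5.89% (4.99%) in Y36C cells. Treated and untreated samples did not overlap in either genotype. The rise was 30.9 points in WT cells (adjusted p = 3.26e-11) and 1.99 points in Y36C cells (log odds 0.417 ± 0.066 SE, adjusted p = 0.000303).

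The receptor FAS and the caspase-8 regulator CFLAR rose by less in WT cells. FAS retention was 1.60 to 2.91% in WT cells under DMSO (median 1.97%) and 8.14 to 18.7% under E7107 (13%), and in Y36C cells 2.45 to 4.86% (2.81%) and 3.54 to 8.14% (6.49%). CFLAR retention was 3.52 to 7.60% (6.40%) and 17.9 to 28.7% (22.3%) in WT cells, and 4.08 to 7.26% (6.42%) and 6.64 to 10.6% (8.44%) in Y36C cells. The treated and untreated WT samples were apart for both genes, and the Y36C samples overlapped. FAS rose by 11.1 points in WT cells (adjusted p = 3.34e-07) and 2.92 points in Y36C cells (adjusted p = 0.0122), and CFLAR by 16.6 points (adjusted p = 8.97e-07) and 2.60 points (adjusted p = 0.0251). The CFLAR rise in Y36C cells did not pass on the boundaries of the reference transcript alone (adjusted p = 0.177).

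APAF1 started lowest together with XIAP. Retention of APAF1 was 0.164 to 2.04% in WT cells under DMSO (median 0.671%), 5.08 to 12.1% under E7107 (8.34%), 0.227 to 2.72% in Y36C cells under DMSO (0.281%) and 0.366 to 1.04% under E7107 (0.722%). It rose by 7.78 points in WT cells (adjusted p = 1.67e-06) and changed by -0.0712 points in Y36C cells (adjusted p = 0.885). Of the 17 APAF1 boundary rows tested singly in WT cells, 1 rose, against 50.3% of all boundary rows. Only 8 of its 26 introns had reads at both sites in all 24 samples. XIAP was 0.298 to 2.35% (0.664%) under DMSO and 0 to 10.4% (5.91%) under E7107 in WT cells, with samples that overlapped, and the difference of 4.18 points (log odds 0.852 ± 0.467 SE) had an adjusted p of 0.115. With PSI in percent as the response, it was 0.0486.

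CASP9, the initiator of the apoptosome, had its rise of mean retention in the other genotype. Its 15 boundary rows averaged 1.91 to 8.22% in WT cells under DMSO (median 5.25%) and 1.67 to 5.37% under E7107 (4.38%), with overlap. In Y36C cells they averaged 1.55 to 3.81% under DMSO (2.57%) and 4.59 to 7.87% under E7107 (6.07%), with no overlap. The difference in WT cells was -0.987 points (log odds -0.143 ± 0.231 SE, adjusted p = 0.586), the rise in Y36C cells was 3.46 points (0.712 ± 0.131 SE, adjusted p = 0.000926), and the effects differed by 4.45 points (adjusted p = 0.0078). Under E7107 CASP9 was higher in Y36C than in WT cells (adjusted p = 0.0411), which 14.1% of all genes were, whereas 63.8% were lower, as were 6 of the 8 genes here. By the interaction term the effect was smaller in Y36C cells for the same 6 (CASP2, CASP8, FAS, CFLAR, FADD and APAF1) and larger for CASP9, against 59.2% and 12.5% of all genes. Under DMSO 0 of the 8 differed between the genotypes (limma adjusted p from 0.248 to 0.971, with CASP2 and FAS at an unadjusted p under 0.05), against 0.355% higher and 0.243% lower among all genes.

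**Figure D1:**
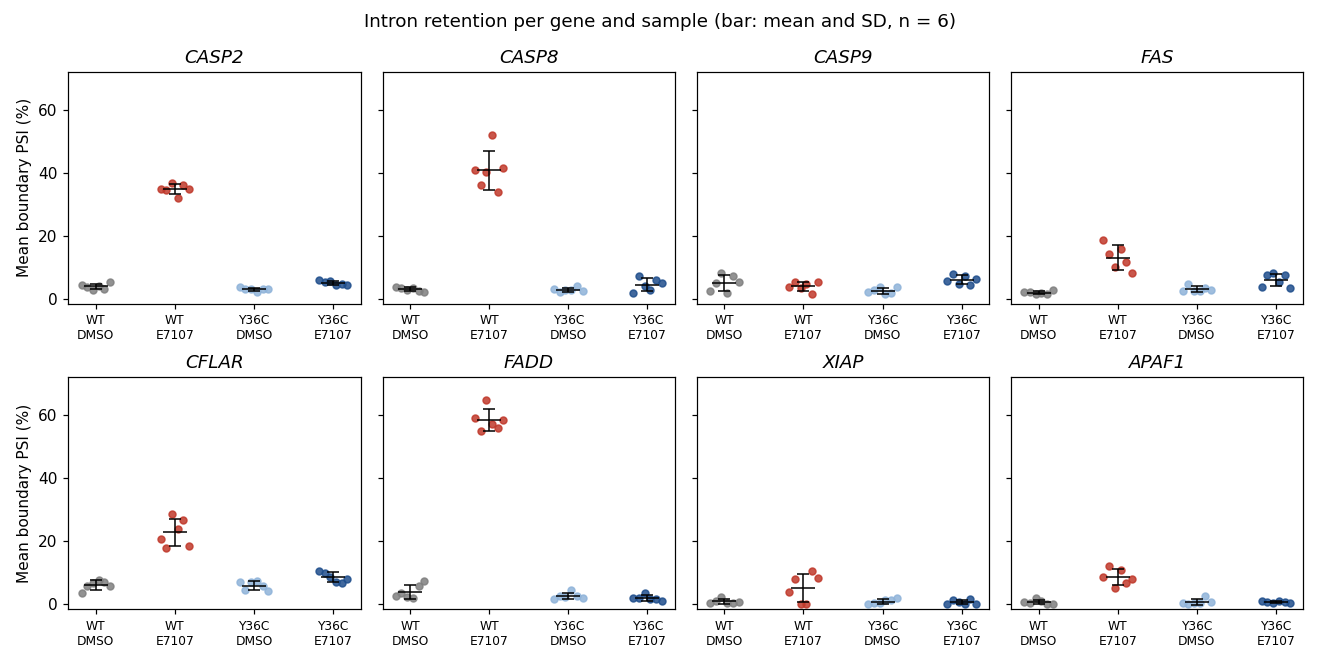
Mean boundary PSI (%) of each gene, 1 point per sample, in 8 panels with the 4 groups of 6 samples on the x axis, where bars give the mean and SD. The treated WT samples of FADD lie between 55.0 and 64.7% and those of CASP8 between 34.1 and 52.0%, while the 4 groups of CASP9 all lie under 8.23%.

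Within the genes, 47 of the 76 reference introns had reads at both splice sites in all 24 samples, and for these the 2 boundaries were averaged. In WT cells 28 of the 47 gained over 10 points with E7107, and in Y36C cells 3 did (CASP2 intron 10, CASP9 intron 3 and FAS intron 6). The median gain was 14.5 points with WT PHF5A and 0.321 points with Y36C PHF5A, and it was larger in WT cells for 40 of the 47. The same shares over all introns of the table were not computed. Over all boundary rows tested, the median change was 7.1 points in WT cells, where 50.3% rose, and 1.82 points in Y36C cells, where 13.3% rose. All 10 introns of CASP2 gained over 10 points in WT cells (15.5 to 54.7), as did all 6 measured introns of CASP8 (29.1 to 49.5), but 4 of 8 in FAS, 3 of 4 in CFLAR, 3 of 8 in APAF1, 1 of 7 in CASP9 and 0 of 3 in XIAP. Across the 47 introns the gain in WT cells had a correlation of r = -0.20 (rho = -0.13) with intron length and r = 0.06 (rho = -0.01) with intron GC content, and the gain in Y36C cells r = -0.39 (rho = -0.35) and r = 0.29 (rho = 0.06). These points share genes, libraries and the treated samples, so that they are descriptions.

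**Figure D2:**
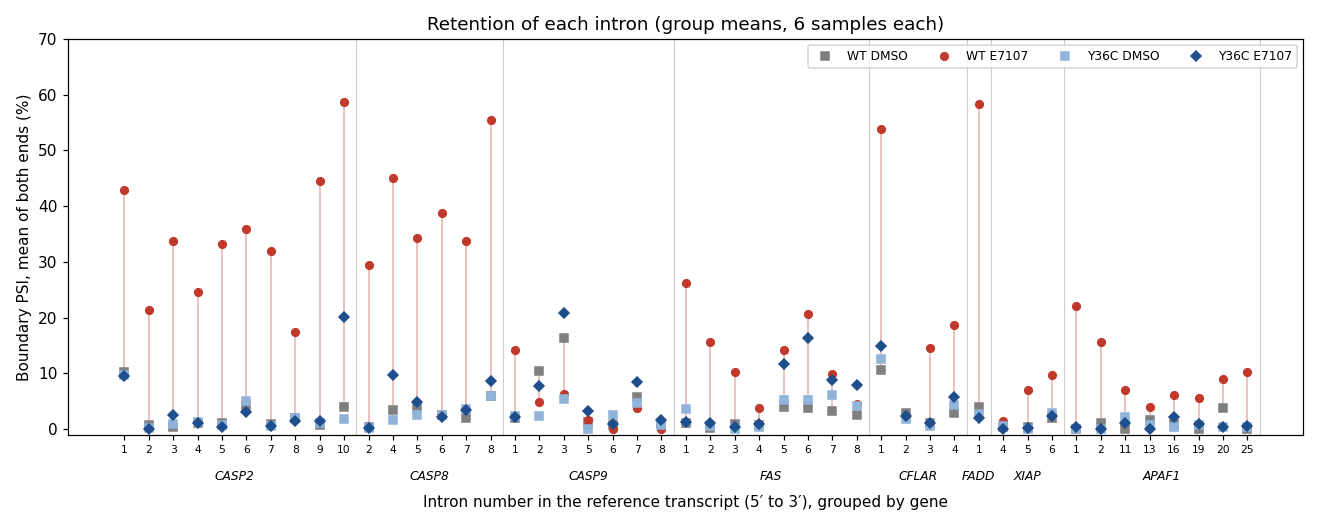
Boundary PSI (%, mean of both ends, group means of 6 samples) of the 47 reference introns read at both sites in all samples, ordered along each gene. Vertical lines join WT DMSO to WT E7107, and the blue diamonds (Y36C E7107) stay near the untreated values except at a few introns, with CASP2 intron 10 at 20.0% and CASP9 intron 3 at 20.9%.

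CASP2 intron 10, 156 bases long at chr7:143001877-143002032, was the intron that responded most in both genotypes. At its acceptor, retention was 1.69 to 6.20% in WT cells under DMSO (median 3.92%), 43.9 to 75.9% under E7107 (65.5%), 0.649 to 3.27% in Y36C cells under DMSO (1.66%) and 19.9 to 28.7% under E7107 (21.7%). Treated and untreated samples did not overlap in either genotype, and all treated WT samples lay above all treated Y36C samples. The rise passed in WT cells (log odds 3.52 ± 0.249 SE, adjusted p = 1.20e-07) and in Y36C cells (2.47 ± 0.200 SE, adjusted p = 2.56e-05), and was smaller in Y36C cells (-1.05 ± 0.302 SE, adjusted p = 0.00716). The junction that leaves out exon 10 (exon 9 joined to exon 11, in no annotated transcript) rose in Y36C cells at the same acceptor, from 0 to 1.44% (median 0.631%) to 2.87 to 9.50% (5.04%, adjusted p = 0.00168). In Y36C cells this junction met the filter on mean PSI only through the treated samples, so that p-value is no separate support. It had a median of 1.85% untreated and 4.58% treated in WT cells, a difference that did not pass (adjusted p = 0.218).

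Intron 1 of FADD (chr11:70049852-70052238, 2387 bases) was retained in WT cells at both ends. Its acceptor went from 1.90 to 11.9% (median 3.63%) to 58.0 to 61.7% (59.7%), and its donor from 1.14 to 4.24% (2.80%) to 50 to 70.5% (55.0%), both with no overlap (adjusted p = 3.53e-07 and 2.60e-08). In treated Y36C cells the acceptor lay between 0 and 3.70% (median 1.54%). CASP8 intron 8 (chr2:202150041-202151181), the last of the gene, had an acceptor retention of 0 to 16.3% (5.56%) untreated and 38.5 to 71.4% (56.2%) treated in WT cells (adjusted p = 7.34e-05), and of 2.00 to 15.0% (3.85%) and 3.92 to 13.2% (9.11%) in Y36C cells (adjusted p = 0.328). Least changed in CASP8 was intron 2, at 29.1 points.

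CASP9 intron 3, of 797 bases (chr1:15833571-15834367), carried much of the CASP9 pattern. Its donor retention was 0 to 36.4% in WT cells under DMSO (median 10.4%), 0 to 10% under E7107 (0%), 0 to 11.1% in Y36C cells under DMSO (6.51%) and 8.33 to 35.7% under E7107 (27.6%). The untreated WT samples spread over the whole range of the other groups. The rise in Y36C cells passed (adjusted p = 0.0231), the difference in WT cells did not (-1.73 ± 0.770 SE, adjusted p = 0.0864), and the effects differed (adjusted p = 0.00332). It was also the intron with the smallest gain of the 8 genes in WT cells, at -10.1 points, and intron 1 of CASP9 had the largest of that gene, at 12.1 points. That gain is a mean of both boundaries. The acceptor of intron 1 did not rise in WT cells, with means of 3.33% untreated and 0% treated (adjusted p = 0.22). The donor of intron 1 rose in WT cells from 0 to 4.55% (median 0%) to 0 to 55.6% (25%, adjusted p = 0.00336). That donor was at 0% in all 6 treated Y36C samples, and the effects differed (adjusted p = 0.000956). It met the filter on mean PSI only through the treated WT samples, so these p-values are no separate support.

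In the other genes the ends of the range in WT cells were FAS intron 1 (25.1 points) and FAS intron 8 (1.95), CFLAR intron 1 (43.3) and CFLAR intron 2 (-0.388), APAF1 intron 1 (22.0) and APAF1 intron 13 (2.31), and XIAP intron 6 (7.72) and XIAP intron 4 (1.01). The other boundaries that rose in Y36C cells were CASP2 intron 3 (acceptor, 0 to 1.54% untreated against 1.99 to 5.96%), FAS intron 6 (donor, 0 to 9.09% against 4.55 to 42.9%), and in APAF1 intron 21 (donor, 0% in all untreated samples against 0 to 17.6%) and intron 16 (acceptor, 0% against 0 to 8.70%). One fell there, the acceptor of CFLAR intron 9 (8.33 to 17.9% against 0 to 5.13%, adjusted p = 0.00608). One boundary fell in WT cells, the acceptor of XIAP intron 2 (0 to 4.55% against 0% in all 6 treated samples, adjusted p = 0.0235). Both APAF1 boundaries and this XIAP acceptor met the filter on mean PSI only through the group with values above 0%.

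First introns stood out in WT cells, which was noticed after the values were seen and was not tested. In 5 of the 6 first introns measured the donor boundary gained more than the acceptor boundary, by a median of 33.6 points over the 6, against 20 of 41 later introns and a median of -0.95 points. The donor of CFLAR intron 1 was retained at 8.33 to 22.4% in WT cells under DMSO (median 19.7%) and at 89.1 to 98.2% under E7107 (94.5%), whereas its acceptor, 13247 bases away, was at 0 to 6.00% (3.13%) and 0 to 28.6% (15.3%). Y36C cells under E7107 had 14.7 to 36.4% at that donor (20.5%), within the spread of their controls. The FAS intron 1 donor was at 0 to 5.56% (1.39%) and 31.0 to 60.0% (44%) in WT cells, and its acceptor at 0 to 2.13% (0%) and 0 to 23.5% (2.94%). CASP2 intron 1 had 54.7 to 75.0% (69.4%) at the donor and 13.6 to 22.2% (20.0%) at the acceptor of treated WT samples. FADD was the exception, with both ends alike.

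**Figure D3:**
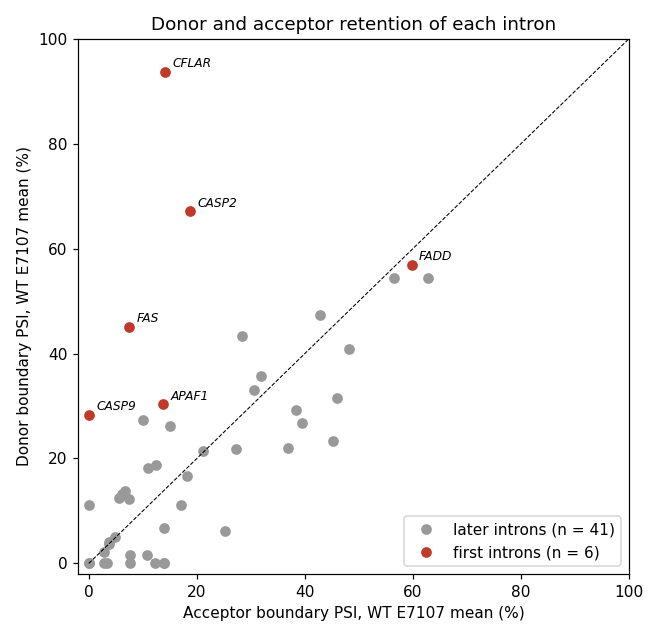
Donor boundary PSI against acceptor boundary PSI (%, means of the 6 WT E7107 samples) for the same 47 introns, with the line of equal values dashed. Red points are the 6 first introns, of which CFLAR (93.8% at the donor, 14.0% at the acceptor), CASP2, FAS, CASP9 and APAF1 lie above the line and FADD near it.

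Junctions that skip FAS exons rose under E7107. Those that skip exon 6, which leaves a receptor with no membrane-spanning segment, rose in both genotypes. At the acceptor of exon 7 the skipping junction (chr10:90770358-90771755) took 16.7 to 43.2% of reads in WT cells under DMSO (median 25.8%) and 58.3 to 75.0% under E7107 (70.1%), and 15.6 to 36.4% (18.6%) and 46.7 to 68.2% (51.7%) in Y36C cells. No treated sample overlapped the controls. The rise was 1.80 ± 0.230 SE log odds in WT cells (adjusted p = 2.32e-05) and 1.40 ± 0.263 SE in Y36C cells (adjusted p = 0.00344), and the difference between them, -0.402 ± 0.336 SE, did not pass (adjusted p = 0.368). The junction from exon 6 to exon 7 at the same acceptor fell from a mean of 70.4 to 15.7% in WT cells and from 71.3 to 35.7% in Y36C cells, and the boundary went from 2.53 to 15.1% and from 5.41 to 9.26%. At the donor of exon 5 skipping rose as well, from a median of 26.7 to 51.5% in WT cells (adjusted p = 0.00709) and from 22.1 to 54.1% in Y36C cells (adjusted p = 0.000857).

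Skipping of the 25-base exon 8 was at most 7.69% without drug. Its donor was the spliced FAS row that rose most in Y36C cells, and its acceptor and the 2 events that follow were chosen after their values were seen. At the donor of exon 7 the junction had medians of 0 and 25% in WT cells and rose from 3.01 to 50% in Y36C cells (adjusted p = 0.00299 and 0.000191). At both ends the junction met the filter on mean PSI in WT cells only through treated samples, so its p-values in WT cells are no separate support. At the acceptor of exon 9 the junction took 0 to 2.13% in WT cells under DMSO (median 0%), 0 to 37.5% under E7107 (17.0%), 0 to 7.69% in Y36C cells under DMSO (2.88%) and 41.2 to 56.8% under E7107 (51.0%). The treated Y36C samples all lay above the treated WT samples (log odds 2.01 ± 0.576 SE, adjusted p = 0.012). At the donor they overlapped, at 0 to 50% and 38.9 to 65.6%, and the difference did not pass (adjusted p = 0.0514). It rose in both genotypes (adjusted p = 0.00462 and 0.000188), and on the log odds scale the interaction did not pass (1.01 ± 0.734 SE, adjusted p = 0.293), while with PSI in percent as the response the rise was 29.9 points larger in Y36C cells (adjusted p = 0.000346).

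At that same acceptor WT cells used another junction. Reads that joined exon 5 to exon 9, and so skipped exons 6 to 8 (171 bases) in a way no annotated transcript does, were at 0% in all 12 untreated samples. They made up 10.5 to 29.4% in treated WT cells (median 19.0%, adjusted p = 8.75e-08). In treated Y36C cells they made up 0 to 5.13% (2.82%, adjusted p = 0.0531), and the effects differed (adjusted p = 7.80e-05). The junction met the filter on mean PSI only through treated samples, so these p-values are no separate support. Use of exon 8 to exon 9 fell from a mean of 95.1 to 56.3% in WT cells and from 91.8 to 40.7% in Y36C cells. Further upstream, exons 3 and 4 were skipped in 0 to 5.26% (2.47%) of reads at the acceptor of exon 5 in WT cells under DMSO and 7.69 to 41.2% (33.3%) under E7107 (adjusted p = 0.000192), and in 0 to 4.55% (0%) and 0 to 17.8% (12.6%) in Y36C cells (adjusted p = 0.0594). The interaction for exons 3 and 4 did not pass at that acceptor (adjusted p = 0.423) or at the donor (0.304), while with PSI in percent as the response both it (0.0264 and 0.0292) and the acceptor rise in Y36C cells (0.0408) did.

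**Figure D4:**
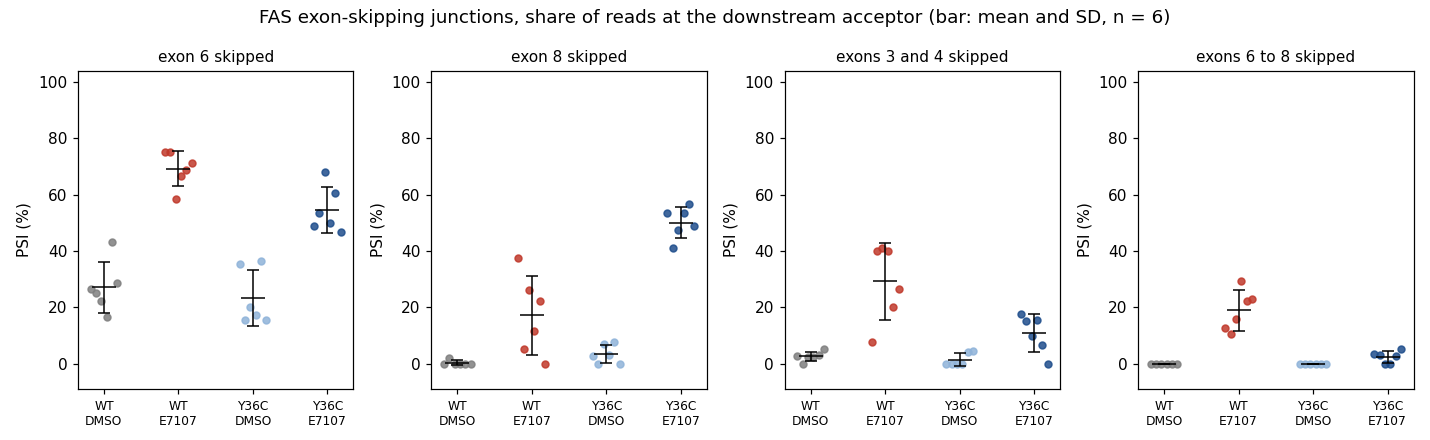
PSI (%) of 4 exon-skipping junctions of FAS at their acceptors, 1 point per sample in the 4 groups, with bars for the mean and SD of 6 samples. Exon 6 skipping is above the controls in all treated samples, exon 8 skipping reaches 41.2 to 56.8% in treated Y36C cells, and skipping of exons 6 to 8 is highest in treated WT cells (10.5 to 29.4%).

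In CASP8 the share of the junction that skips the 45-base exon 5 moved in opposite directions in the 2 genotypes. At the acceptor of exon 6, the junction that skips it (chr2:202137500-202139611, found in annotated transcripts) took 45.1 to 62.0% in WT cells under DMSO (median 53.0%) and 0 to 33.3% under E7107 (13.8%). In Y36C cells it took 40.0 to 70.5% (49.8%) and 65.6 to 84.4% (80.4%). Treated WT samples lay below every other sample, and 5 of the 6 treated Y36C samples lay above all controls. Skipping fell in WT cells (-2.18 ± 0.562 SE, adjusted p = 0.0061) and rose in Y36C cells (1.14 ± 0.258 SE, adjusted p = 0.01), and the effects differed (3.32 ± 0.629 SE, adjusted p = 0.000139). In WT cells the reads at that acceptor went to the boundary, whose mean rose from 4.75 to 45.2%, whereas the junction from exon 5 had means of 41.2 and 38.6% (adjusted p = 0.698). In Y36C cells the boundary had means of 3.15 and 3.71%, and the junction from exon 5 fell from 43.1 to 17.9% (adjusted p = 0.00498). At the donor of exon 4 the same junction fell in WT cells (adjusted p = 0.0113), and in Y36C cells a difference from 47.1 to 55.3% did not pass (adjusted p = 0.238).

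The other CASP8 skips were rarer, and the first 2 of them were chosen after their values were seen. Skipping of exons 5 and 6 at the acceptor of exon 7 was 8 to 15.9% in WT cells under DMSO (median 12.1%) and 0% in all 6 treated samples (adjusted p = 4.53e-08), and 3.77 to 15.1% (11.2%) and 12.1 to 18.6% (13.6%) in Y36C cells (adjusted p = 0.314). In WT cells this junction met the filter on mean PSI only through the untreated samples, so its p-value there is no separate support. Skipping of exons 5 to 7 rose in Y36C cells alone by the test, from 1.49 to 5.00% (1.82%) to 6.85 to 12.50% (9.01%, adjusted p = 0.00152), with 0 to 10% (2.57%) and 0 to 15.4% (3.57%) in WT cells (adjusted p = 0.868), but the difference between the genotypes did not pass (adjusted p = 0.244). Skipping of single exons 3, 6 and 7 had group means of 0 to 14.6%, and no change with E7107 in either genotype passed where it could be tested. The junction from an exon upstream of the reference transcript to exon 2 (chr2:202098836-202131183) took 33.3 to 48.9% (47.7%) of reads at its donor in Y36C cells under DMSO and 62.2 to 75.6% (70.1%) under E7107 (adjusted p = 0.00314), against 31.2 to 52.3% (50.5%) and 10 to 50% (29.0%) in WT cells (adjusted p = 0.116), and the effects differed (adjusted p = 0.001).

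CFLAR splits at the donor of exon 5 between the long form, which continues to exon 6, and the exon that ends the short form (chr2:202005163-202006096). The short-form junction took 30.5 to 39.7% in WT cells under DMSO (median 36.6%) and 25.0 to 100% under E7107 (50%), and 33.3 to 40.3% (38.2%) and 15.5 to 31.6% (25.1%) in Y36C cells. The treated WT samples spread over most of the scale and held the controls inside their range, while all treated Y36C samples lay below their controls. It fell in Y36C cells (-0.629 ± 0.189 SE, adjusted p = 0.0408), which was lost with an offset of 0.1 points (adjusted p = 0.0801) and with reads asked for in 4 of 6 samples per group (0.0524), and at the acceptor it did not pass (adjusted p = 0.102). It did not pass at the donor in WT cells (1.37 ± 0.784 SE, adjusted p = 0.184) or for the difference between genotypes (adjusted p = 0.0578). The junction to exon 6 had group means of 52.6, 26.4, 50.1 and 56.4% in the same order, and neither treatment effect passed (adjusted p = 0.076 and 0.519). The largest rise of a spliced CFLAR row in Y36C cells was that of exon 9 joined to exon 10, from 82.1 to 91.7% (88.7%) to 94.9 to 97.6% (97.4%) at the acceptor (adjusted p = 0.00155).

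CASP2 includes its 61-base exon at a low level, and the junction out of it fell under E7107. At the acceptor of exon 9 the junction out of that exon took 0.870 to 4.24% in WT cells under DMSO (median 2.36%) and 0 to 1.82% under E7107 (0%), and 0.709 to 4.67% (1.32%) and 0 to 0.565% (0%) in Y36C cells. Treated samples were mostly at 0 in both genotypes. It fell in WT cells (adjusted p = 0.00419) and in Y36C cells (adjusted p = 0.0305), calls that PSI in percent did not keep (adjusted p = 0.0622 and 0.171). The junction into the exon fell at its donor in Y36C cells (adjusted p = 0.015, and 0.0546 with PSI in percent), and in WT cells it did not pass (adjusted p = 0.169). The rows of the 61-base exon that fell met the filter on mean PSI only through untreated samples, so their p-values are no separate support. The junction from exon 8 to exon 9, which leaves the exon out, fell in WT cells from 92.2 to 96.5% (93.2%) to 53.2 to 77.3% (63.8%, adjusted p = 9.14e-06), and rose in Y36C cells from 92.0 to 95.1% (94.5%) to 95.2 to 99.5% (97.9%, adjusted p = 0.0444). That rise in Y36C cells was lost with an offset of 0.1 points (adjusted p = 0.0714) and with reads asked for in 4 of 6 samples per group (0.0562), and at the donor of the same junction it did not pass (adjusted p = 0.252). The effects differed (2.76 ± 0.321 SE, adjusted p = 1.98e-07). The boundary of intron 8 took up part of the reads in WT cells, from a mean of 1.97 to 18.2%.

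The largest rise of a spliced CASP2 row in WT cells was at the acceptor of exon 2. The junction from an exon that another annotated transcript starts with (chr7:142986750-142988632) went from 3.96 to 14.4% (median 8.75%) to 21.6 to 47.7% (30.5%, adjusted p = 0.000156). In Y36C cells it was 5.00 to 12.4% (9.70%) and 7.50 to 11.4% (9.24%, adjusted p = 0.983), and the effects differed (adjusted p = 0.000103).

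In CASP9 and APAF1, the 2 apoptosome genes, the isoform junctions examined, CASP9 exon 2 joined to exon 7 and skipping of APAF1 exon 18, had differences between treatments that did not pass. Joining of CASP9 exon 2 to exon 7, which omits 450 bases and gives the form without the catalytic part, took 13.6 to 47.4% at the donor in WT cells under DMSO (median 30.7%) and 0 to 33.3% under E7107 (13.9%), and 8.33 to 34.6% (24.6%) and 10.5 to 42.9% (33.8%) in Y36C cells. All 4 groups overlapped (adjusted p = 0.104 in WT cells, 0.55 in Y36C cells and 0.0733 for the difference). With the replicate number added to the limma model, the difference in WT cells and the interaction passed (adjusted p = 0.0359 and 0.0227). Exon 6 joined to exon 7 was the spliced CASP9 row that rose most in WT cells, from 88.9 to 100% (91.3%) to 100% in all 6 treated samples at the donor (adjusted p = 0.000917). In WT cells this row met the filter on mean PSI only through the untreated samples, so its p-value is no separate support. At its acceptor the same junction had means of 61.2 and 82.2% in WT cells, a difference that did not pass (adjusted p = 0.0745). Skipping of APAF1 exon 18, a 129-base exon (the junction is annotated), was 20.0 to 41.7% (31.4%) and 0 to 100% (26.7%) at the donor in WT cells, and 22.2 to 73.7% (37.5%) and 25.0 to 72.2% (65.2%) in Y36C cells. The differences, -0.455 ± 1.28 SE and 0.647 ± 0.459 SE, did not pass (adjusted p = 0.80 and 0.396). The other single-exon skips listed for APAF1 (exons 3, 5, 8, 12, 13, 21 and 22) had a median of 0% in every group except exon 5 in treated WT cells (10% at the donor and 7.14% at the acceptor), and none passed a test with E7107. No spliced XIAP row passed with E7107 in either genotype (0 of 10 and 0 of 27, with 0 and 5 at an unadjusted p under 0.05).

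**Figure D5:**
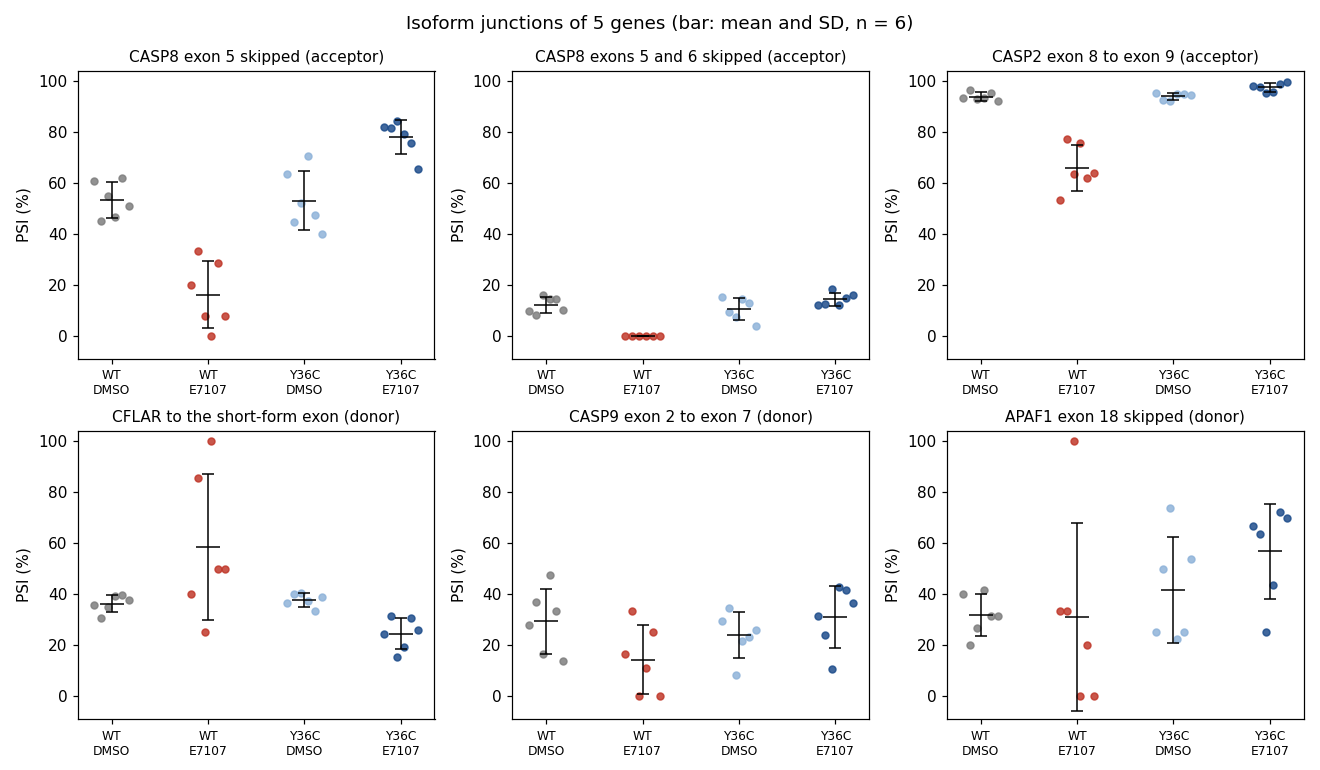
PSI (%) of 6 isoform junctions of CASP8, CASP2, CFLAR, CASP9 and APAF1 at the splice site named in each panel, 1 point per sample, with bars for the mean and SD of 6 samples. CASP8 exon 5 skipping is lowest in treated WT samples (0 to 33.3%) and highest in treated Y36C samples (65.6 to 84.4%), while the treated WT samples of CFLAR and APAF1 spread up to 100%.

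In FADD, whose single intron leaves little room for isoforms, 1 spliced row rose in WT cells. It is a junction from a site inside the intron to exon 2 (chr11:70050089-70052238, in no annotated transcript), at 0% in all WT controls and 0 to 7.69% (median 2.67%) under E7107 (adjusted p = 0.00478). The junction met the filter on mean PSI only through the treated samples, so its p-value is no separate support. In Y36C cells it was 0 to 1.10% untreated and 0 to 2.72% treated.

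Of 26 other genes of the death-receptor and apoptosome routes, 22 had a mean retention. In WT cells 18 rose and 1 fell (all genes: 70.5% and 7.28%), and in Y36C cells 10 rose and 0 fell (43.3% and 0.962%), with a median change of 11.97 and 1.38 points (7.18 and 1.02 over all genes). Under E7107, 16 were lower and 2 higher in Y36C than in WT cells (63.8% and 14.1%), and under DMSO 1 was higher, PIDD1 (adjusted p = 0.0233). These shares are near those of all genes. The 3 genes that follow were chosen after their values were seen. TNFRSF10B, a receptor for the ligand TRAIL, rose from 10.7% ± 0.649 (SD, n = 6) to 62.2% ± 2.05 in WT cells and from 10.2% ± 0.687 to 12.9% ± 0.601 in Y36C cells (limma adjusted p = 4.01e-13 and 0.000308). PIDD1, which activates caspase-2, rose from 19.5% ± 0.568 to 64.4% ± 2.60 and from 24.0% ± 1.52 to 28.3% ± 1.21 (limma adjusted p = 4.88e-12 and 0.00196). TRADD, the adaptor of the TNF receptor, had no call in WT cells, at 13% ± 3.08 and 13.8% ± 4.31 (limma adjusted p = 0.796), and rose in Y36C cells from 11.6% ± 2.03 to 24.4% ± 4.81 (limma adjusted p = 0.000167, interaction 0.00191).

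Of 636130 splice sites listed, 336249 to 340081 had reads in a sample under DMSO, 328458 to 331604 in Y36C cells under E7107 and 281164 to 283548 in WT cells under E7107, so that the group with the most retention also had the fewest sites with reads, whose part in the results was not tested. Epithelial marker genes had 94 reference boundaries listed, of which 90 had reads in all samples, while those of blood cells had 3, of which 0 had reads in all samples, and those of stroma had none listed. Among the epithelial genes VIL1 had 0 boundaries listed, LGALS4 had 0 of 2 read in all samples and CDX2 had 2 of 4. No 2 samples held identical values.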

How the data were processed

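RNA-seq reads of 24 HCT-116 samples were aligned to hg19 with STAR by the authors, who turned junction counts into the percent spliced in and deposited 1 table of these percent values per sample, with no counts. Each table held 1830076 rows. Of these, 6433 lay on the mitochondrial genome or had no strand and were not used. The percentages of a site always added up to 100 or, where it had no reads, to 0. Of 687 member spliced rows, 97.4% had GT and AG at their intron ends in the GRCh37 genome. Introns were numbered on GENCODE v44lift37 transcripts. CASP2, CASP8, CFLAR and XIAP overlap other annotated genes on the same strand, whose rows could not be separated.

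The odds of each PSI were formed after adding an offset of 1 point to PSI and to its complement, and their natural logarithm was fitted with limma 3.58.1 in R 4.3.3 on all rows whose site had reads in every sample of the fit and whose mean PSI was 1 to 99%, 12 samples per comparison and 24 for the interaction. Gene mean retention was fitted over 11539 genes with 2 or more boundary rows. Depth per site is unknown. Alternatives were the response, the offset, the filters, the prior, a change of at least 10 points and a replicate block. Same-numbered samples did not visibly deviate together (mean r = 0.000686 over 36 pairs, against -0.000137 for other pairs). Noise at sites with few reads could hide a small shared deviation, so pairing by number is not excluded.

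The genes, the other pathway genes, the fixed isoform events and the log odds were chosen with earlier results of these data known. All 8 genes were named. For each, the text gives mean retention, the introns with the largest and smallest gain in WT cells, the spliced row that rose most in each genotype and fixed isoform junctions. Other events and genes were chosen after their values were seen.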

Additional observations from a re-analysis of the deposited data

Results flagged for a closer look

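In 23 of 192 groups of 6 samples examined, 1 sample lay far from the other 5 by Dixon's gap test. Chance flags about 1 in 20 groups where values are normal and untied, which does not hold for the many groups here with most samples at 0%. Mean retention of FADD was 3.704% in Y36C E7107 replicate 3, that of XIAP 2.351% in WT DMSO replicate 3 and that of APAF1 2.725% in Y36C DMSO replicate 5. Y36C DMSO replicate 5 was also apart for skipping of CASP8 exon 3 (donor, 4.762%), CASP8 exon 7 (donor 1.754% and acceptor 1.299%) and APAF1 exon 5 (donor 6.25% and acceptor 3.571%). Y36C E7107 replicate 5 had 2.778% skipping of CASP8 exon 3 at the donor. WT E7107 replicate 3 had 100% skipping at the donors of both APAF1 exon 5 and APAF1 exon 18, and 12.5% at the acceptor of exon 13. The remaining APAF1 samples were Y36C E7107 replicate 2 for exon 5 (donor 8.0%, acceptor 10.526%), WT DMSO replicate 1 for exon 3 (donor 12.5%), Y36C E7107 replicate 1 for exon 12 (donor 15.79%) and Y36C DMSO replicate 6 for exon 21 (donor 4.545%). WT DMSO replicate 2 was the untreated WT sample with FAS exon 8 skipping (donor 2.083%, acceptor 2.128%). For CASP8 exons 5 to 7, WT E7107 replicate 4 had 25.0% at the donor and Y36C DMSO replicate 4 had 5.0% at the acceptor. The CASP2 junction out of the 61-base exon was at 1.818% in WT E7107 replicate 5, and the FADD junction from inside the intron at 2.721% in Y36C E7107 replicate 1.

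The effect of E7107 differed between the genotypes by the limma interaction term for 19 results, given here on the log odds scale, where a positive value means a more positive effect in Y36C cells. For mean retention it was -3.6 in FADD, -2.51 in CASP8, -1.95 in CASP2, -1.74 in APAF1, -1.08 in FAS, -1.05 in CFLAR and 0.85 in CASP9. Skipping of CASP8 exon 5 differed by 2.23 at the donor and 3.32 at the acceptor, and skipping of CASP8 exons 5 and 6 by 3.0 and 3.07. The CASP2 junction from exon 8 to exon 9 differed by 1.58 and 2.76, and skipping of FAS exons 6 to 8 by -2.16 and -2.13. The junctions to exon 2 from an exon outside the reference transcript differed by -1.69 in CASP2, 1.81 in CASP8 and -1.59 in FADD. CASP9 exon 6 joined to exon 7 differed by -2.28 at the donor, and at the acceptor the interaction did not pass (adjusted p = 0.0724).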

How the results depend on the processing

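With the replicate number as a replicate block, 29 member rows in place of 45 passed between E7107 and DMSO in Y36C cells. The block gave 125 rows in WT cells (121 without it), 118 between genotypes under E7107 (125), 101 for the interaction (101) and 0 under DMSO (0). With the block, CASP9 exon 2 joined to exon 7 passed at the donor in WT cells (adjusted p = 0.0359) and for the interaction (0.0227), and the calls in Y36C cells were lost for CASP2 exon 8 joined to exon 9 (acceptor, 0.0755), the CASP2 61-base exon (into it 0.0662, out of it 0.0643) and the CFLAR short-form donor (0.118). Asking for a change of at least 10 points left 23 rows in Y36C cells. Asking for a PSI above 0 in all 6 samples of a group gave 2 rows under DMSO, where fewer rows were tested (248). Every alternative for the other totals of member rows or genes stayed within 1.5 times the value given, but some counts in 1 direction did not. With a change of at least 10 points, or a PSI above 0 in all 6 samples of a group, spliced rows higher in WT cells went from 22 to 9 or 10, spliced rows lower in Y36C cells under E7107 from 23 to 9 or 13, and spliced rows with a more negative effect in Y36C cells from 14 to 7 or 9. Of 909 alternatives over 145 results for single genes and junctions, 875 kept direction and side of the threshold, 15 came to pass, 12 no longer passed and 7 changed sign, none of which passed before or after, and the causes were not tested. With PSI in percent as the response, in points, these were APAF1 mean retention in Y36C cells (-0.071), the CFLAR short-form acceptor in WT cells (-17.71) and for the interaction (7.127), and the CASP2 junction into exon 2 in Y36C cells (-0.162). With an offset of 0.1 points they were the FAS exon 8 skipping donor for the interaction (-0.01) and the acceptor of CASP8 exons 5 to 7 skipping in WT cells (-0.122), and with reference boundaries only CFLAR mean retention under DMSO (0.052). Since read numbers are unknown, values of 0 or 100% at single sites may rest on few reads.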

Other observations

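In CASP2, junctions that bridge most of the gene and belong to no annotated transcript were read in WT cells under E7107 and were at 0% in all other samples, a pattern chosen after its values were seen. Exon 1 joined to exon 9 took 0 to 8.51% (median 4.82%) of reads at its acceptor, and the other annotated first exon joined to exon 9 took 2.27 to 15.4% (5.38%) at its donor. Both rises passed (limma adjusted p = 0.00157 and 8.66e-05). Both junctions met the filter on mean PSI only through the treated WT samples, so these p-values are no separate support. Across the 47 introns, the share of pyrimidines in the last 50 bases had a correlation of r = 0.14 (rho = 0.14) with the gain in WT cells and r = -0.11 (rho = 0.08) with that in Y36C cells, as a description over introns that share genes and libraries.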
